A study of Drosophila melanogaster with 4 samples.

Results

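The genes of the fourth chromosome were examined in late embryos of Drosophila melanogaster, the fruit fly. The members were all genes that the count table places on this chromosome, leaving out CR-numbered and snoRNA genes (22), the genes ci, ey, toy, sv, bt, RpS3A and ATPsyn-beta, and eIF4G. This left 74 of the 104 genes of the chromosome and of the 16727 genes in the table, and 70 of the 74 had enough counts to be tested. Total RNA was sequenced in 4 libraries, 2 in group H3.2-K4R and 2 in group H3.2-WT. Whole embryos of both groups were 16 to 18 h old, lacked the endogenous cluster of replication-dependent histone genes (deltaHisC, picked as homozygotes by GFP), and carried a histone transgene (12x). In H3.2-K4R (deltaHisC; 12xH3.2-K4R) the transgene encodes histone H3.2 with arginine in place of lysine 4, and in H3.2-WT (deltaHisC; 12xH3.2-WT) it encodes the wild-type histone. The replacement is limited to H3.2, as the variant H3.3 comes from other genes that the deletion leaves in place.

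The fourth chromosome is the smallest of the fly. Its genes lie in chromatin that resembles heterochromatin, rich in the protein HP1a and in H3K9 methylation made by the methyltransferase egg, yet many of them are active, and the start sites of active genes there carry H3K4 methylation as on other chromosomes. Pof, an RNA-binding protein, coats this chromosome and supports the expression of its genes. The comparison addresses what loss of lysine 4 from H3.2 does to RNA levels of genes in this setting.

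The libraries held 42661669 and 37055590 counted read pairs in H3.2-K4R, and 33882742 and 45509930 in H3.2-WT. Replicates were not copies of each other, since over the members their counts differed beyond counting error (chi-square divided by its degrees of freedom 36.4 in H3.2-K4R and 23.1 in H3.2-WT). Levels are totals over whole embryos, so fewer cells of a type and less RNA per cell cannot be told apart. The labelled tissue was checked against marker genes. Markers of neurons (summed level 2436 and 2448 CPM in H3.2-K4R, 2045 and 2139 in H3.2-WT), muscle (7971 and 7468 against 9023 and 9355) and the late epidermis and trachea (4003 and 3759 against 3751 and 3960) were abundant, where CPM is the count scaled to a common library size after TMM normalization. Hemocyte markers summed to 313 and 314 CPM in H3.2-K4R and 270.0 and 315 in H3.2-WT, germ line markers to 20.5 and 20.1 against 10.9 and 12.0, and maternal and yolk markers to 5.40 and 1.96 against 9.36 and 0.711. Of the genes on these marker lists, 0 passed the threshold used below. The 3 storage and late larval genes that stood for the fat body (Fbp1, Lsp2 and Lsp1alpha) were near 0 (summed level 1.34 and 0.304 against 0.998 and 1.03 CPM), with Lsp1alpha at 0 in all 4 libraries, and each of Fbp1 and Lsp2 at 0 in 1 library. Rfabg, a member that the fat body is also known to make, was abundant, as described below.

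No gene of the fourth chromosome set passed the test between H3.2-K4R and H3.2-WT. Of the 70 tested members, 0 were higher and 0 lower past the threshold (edgeR, quasi-likelihood, p adjusted by Benjamini-Hochberg over all 11562 tested genes, threshold 0.05), where 0.588% of all tested genes were. An unadjusted p under 0.05 was reached by 2 members that were higher and 6 that were lower, where 7.68% of all tested genes were higher and 9.2% lower at that level. Together these are 11.4% of the members and 16.9% of all tested genes. DESeq2 and limma-voom each called 1 member lower, CG1732 in both, where these tools called 5.75% and 1.5% of all tested genes. The lowest adjusted p among the members in edgeR was 0.0977, also that of CG1732.

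The fold changes of the members lay in a narrow range. Log2 fold changes, H3.2-K4R relative to H3.2-WT, ran from -0.83 for Arf102F to 0.65 for Kif3C, with a median of 0.03 over the members and -0.02 over all tested genes. Positive values were held by 39 members and negative values by 31. The interquartile range ran from -0.14 to 0.18 over the members and from -0.35 to 0.28 over all tested genes. A difference of 1.5-fold or more in either direction was seen in 4 members, Arf102F, CG1732, dpr7 and Kif3C (5.71%), against 26% of all tested genes. The members are more abundant than most genes, and low genes vary more. With genes below a log2 CPM of 4 set aside, the interquartile range was 0.31 wide over 59 members and 0.46 over 5528 genes in all. Below that level it was 0.48 over 11 members and 0.90 over 6034 genes. The cut does not match levels, as the median log2 CPM above it was 6.69 over the members and 5.85 over all genes. Below it the medians were 2.71 and 1.73. The part of abundance in the narrow range was not tested.

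**Figure D1:**
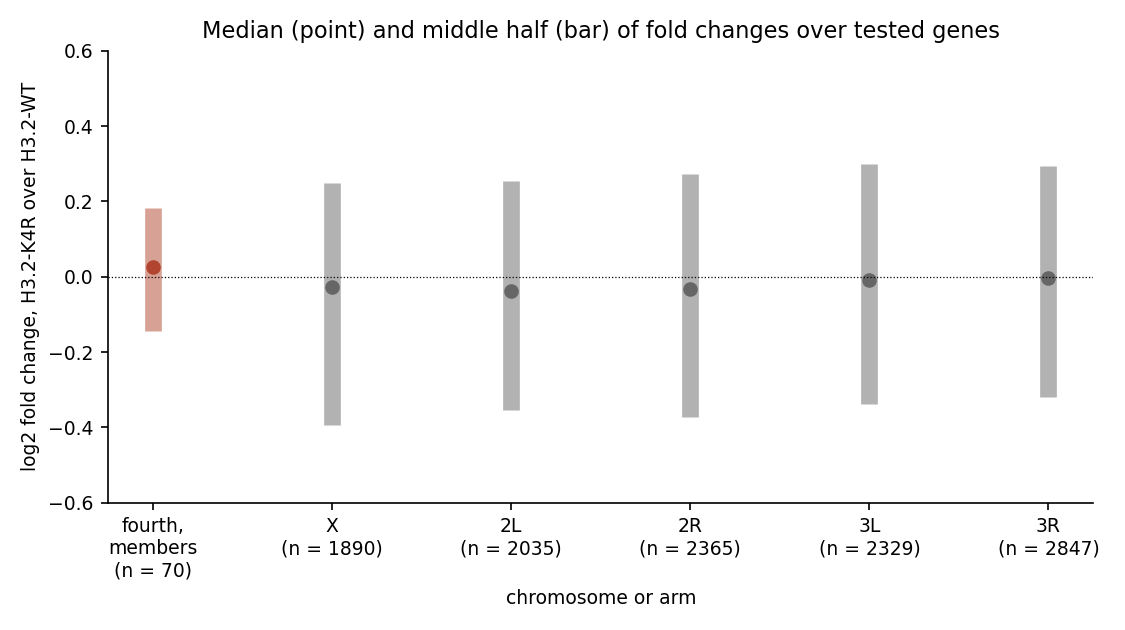
Log2 fold changes, H3.2-K4R relative to H3.2-WT (vertical axis), for the members on chromosome 4 and for each of the other large chromosome arms (horizontal axis), with the median as a point and the interquartile range of the tested genes as a bar. The members have a median of 0.03 and a bar of width 0.33, and the arms have medians between -0.04 and 0.00 and bars of width 0.61 to 0.65.

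Given the spread between these libraries, the intervals show how large a change could have been missed. The labels do not say that replicates came from separate collections, so the intervals may leave out spread between collections. For 61 of the 70 members (87.1%) the 95% confidence interval of the fold change lay within a 2-fold change in either direction, where this held for 52.6% of all tested genes. For 33 members (47.1%) it lay within 1.5-fold, against 20.8% of all tested genes. The median SE of a member was 0.17 log2 units. The 9 members whose interval reached past 2-fold were CG1732, Arf102F and dpr7, which had lower means in H3.2-K4R, and the weakly expressed genes CG32006, CG32850, pncr013:4, CG9935, fd102C and Kif3C. Of these, CG32006, pncr013:4, CG9935, fd102C and Kif3C are named after their values were seen.

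**Figure D2:**
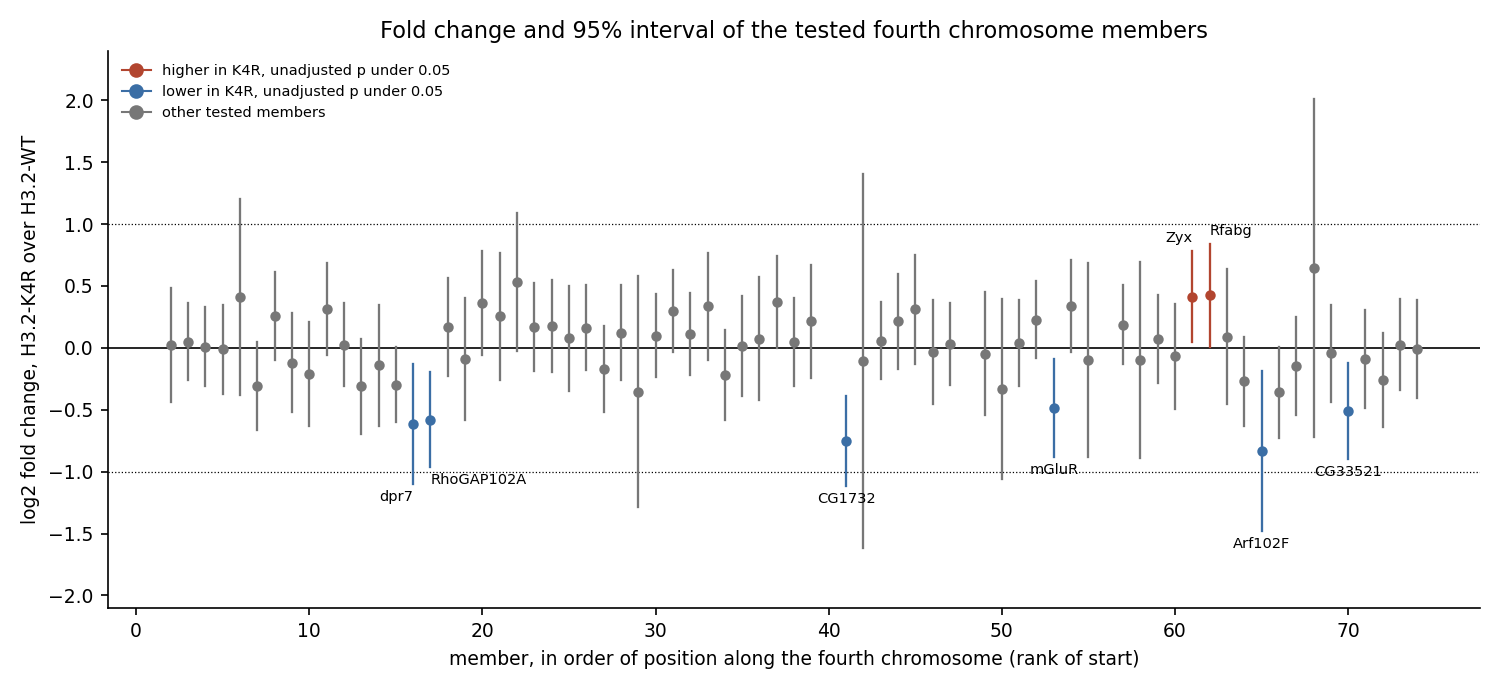
Log2 fold change, H3.2-K4R relative to H3.2-WT (vertical axis), of the 70 tested members in their order along the chromosome (horizontal axis), with 95% confidence intervals as lines and dotted lines at a 2-fold change in either direction. The 8 members with an unadjusted p under 0.05 are coloured and named, and 6 of them lie below 0; none is past the adjusted threshold.

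Medians over neighbouring stretches of the chromosome lay near 0. Among the 24 members at the low-coordinate end, from JYalpha to Hcf (dm6, chromosome 4, 879 to 375554), 23 were tested and the median log2 fold change was 0.02. It was 0.07 over the 23 tested members of the middle section, from Lin29 to Sox102F (375640 to 834393), and -0.06 over the 24 tested members of the high-coordinate section, from fd102C to Caps (836986 to 1271759). In the same order, 13, 16 and 10 tested members were above 0 and 10, 7 and 14 below. At an unadjusted p under 0.05 in edgeR were 2, 1 and 5, where 16.9% of all tested genes were. The order along the chromosome and the fold change had a Spearman rho of -0.08 over the 70 members, which share their libraries, so no p is given. By strand, the median was 0.02 over 28 members on the plus strand and 0.03 over 42 on the minus strand.

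The summed level of the members did not separate the groups. As a share of all counted pairs they took 1.29% and 1.51% in H3.2-K4R and 1.20% and 1.34% in H3.2-WT. The groups overlap in this share. Without Rfabg, which alone held 31.6% and 33.6% of the members' pairs in H3.2-K4R and 26.9% and 28.4% in H3.2-WT, the shares were 0.890% and 1.01% in H3.2-K4R and 0.877% and 0.960% in H3.2-WT. An exact permutation test with 2 libraries per group has 0.33 as its smallest two-sided p, so none is given. Set against the average over libraries, the median member stood at -0.09 and 0.14 log2 units in H3.2-K4R, replicate 1 before 2, and at -0.07 and 0.04 in H3.2-WT in the same order. H3.2-K4R replicate 2 had the highest level of the 4 libraries in 44 of the 70 members. It was above H3.2-K4R replicate 1 in 56, and H3.2-WT replicate 2 was above H3.2-WT replicate 1 in 49. The median absolute difference between replicates over the members was 0.25 in H3.2-K4R and 0.14 in H3.2-WT. The median absolute fold change between the groups was 0.17. It compares groups of 2 libraries, which vary less than single libraries, so the 2 measures are not on the same scale.

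**Figure D3:**
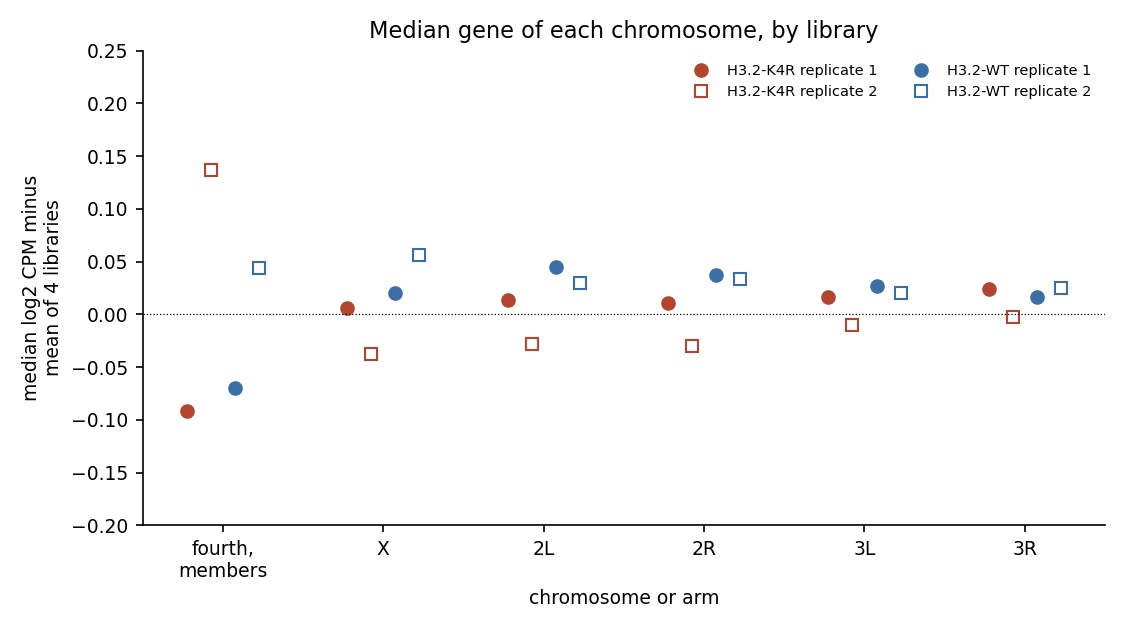
Median log2 CPM of the tested genes of each chromosome or arm, relative to the mean of the 4 libraries (vertical axis), for the members on chromosome 4 and the other large arms (horizontal axis). The median member lies at -0.09 and 0.14 in the 2 H3.2-K4R libraries and at -0.07 and 0.04 in the 2 H3.2-WT libraries, so the replicates of a group are further apart than the groups.

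Leaving out 1 library moved the median of the members across 0. It was 0.14 without H3.2-K4R replicate 1, -0.07 when replicate 2 of that group was dropped, -0.01 with H3.2-WT replicate 1 left out, and 0.12 when H3.2-WT replicate 2 was omitted. Each of these fits leaves a lone library in 1 group, so no p is given for them. Their counts of calls are listed only under the dependence on processing, and no conclusion is drawn from those counts.

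Genes of the fourth chromosome are long, and members with more exon sequence tended to have higher fold changes. The median exon length was 4356 bases over the tested members and 1902.5 over all tested genes, and the median span from first to last exon was 10090 against 2522.5 bases. Over the members the Spearman correlation of exon length with the fold change was 0.34, as a description across genes that share their libraries. The 11 members with up to 2000 bases of exon had a median of -0.12, the 39 between 2000 and 6000 bases 0.01, and the 20 above 6000 bases 0.11. Over all tested genes the medians of these classes were -0.13, 0.01 and 0.19. Removing the trend on exon length in each library gave other values. The median of the members was -0.06 and that of all tested genes 0.01, with 29 members above 0 and 41 below. The interquartile range of the members narrowed to 0.23. By edgeR 0 members were called, against 0.787% of all tested genes. At an unadjusted p under 0.05 were 10 of the 70 members, against 15.1% of all tested genes.

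**Figure D4:**
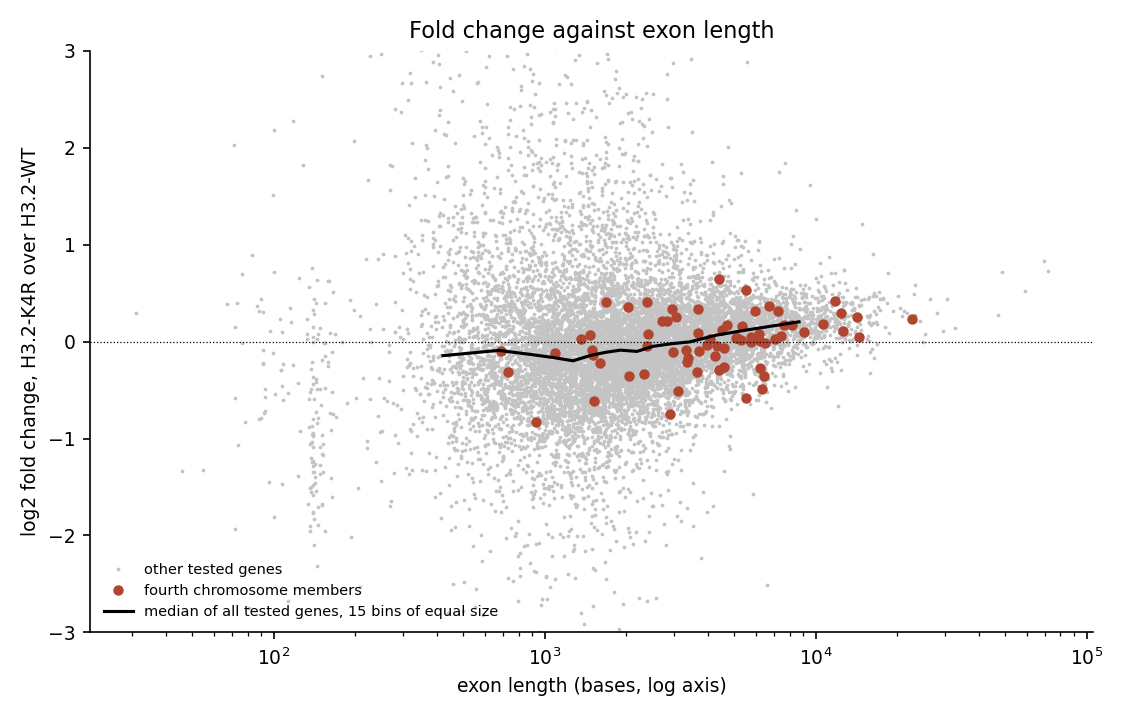
Log2 fold change, H3.2-K4R relative to H3.2-WT (vertical axis, cut at 3 in either direction, which leaves out 146 genes and 0 members) against exon length in bases (horizontal log axis) for the members and the other tested genes, with the median of all tested genes in 15 bins of equal size. The median line runs from -0.20 to 0.20, and the members lie around it.

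Among the members with a negative fold change, CG1732 had the lowest p. CG1732 (now Gat; chromosome 4, 629691 to 635350, plus strand), the transporter that takes up the transmitter GABA and is best known from astrocyte-like glia, had 80.8 and 73.3 CPM in H3.2-K4R and 118 and 141 CPM in H3.2-WT. Both H3.2-K4R libraries lay below both H3.2-WT libraries, as in 27.5% of all tested genes. The log2 fold change was -0.75 ± 0.16 (SE, n = 2 per group; 95% interval -1.11 to -0.39; edgeR adjusted p = 0.0977). DESeq2 called it at an adjusted p of 0.00181 and limma-voom at 0.0434, and across the alternatives run the fold change stayed between -0.86 and -0.62. The summed level of 3 glial markers (repo, gcm and moody) was 91.6 and 87.2 CPM in H3.2-K4R and 108 and 130 in H3.2-WT. Of these, moody had a log2 fold change of -0.43 ± 0.17 and repo -0.39 ± 0.19, neither past the threshold (edgeR adjusted p = 0.247 and 0.344), and gcm 0.10 ± 0.49. The part of glial number or RNA content in the difference of CG1732 was not tested.

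RhoGAP102A, a GTPase-activating protein gene (254997 to 265574, plus strand), had 35.1 and 33.8 CPM in H3.2-K4R and 55.5 and 47.6 CPM in H3.2-WT, a log2 fold change of -0.58 ± 0.17 (edgeR adjusted p = 0.17). CG33521 (1185768 to 1192985, plus strand) had 72.3 and 92.6 CPM against 116 and 119 CPM (-0.51 ± 0.17, edgeR adjusted p = 0.203). Arf102F (now Arf4; 1124167 to 1125325, plus strand), a small GTPase of the ADP-ribosylation factor family that acts in vesicle traffic, had 19.0 and 11.3 CPM in H3.2-K4R and 31.2 and 22.8 CPM in H3.2-WT (-0.83 ± 0.28, edgeR adjusted p = 0.213). In all 3 genes the groups did not overlap, with H3.2-K4R lower, as in 27.5% of all tested genes, and none passed the threshold. Arf102F has only 930 bases of exon, and its log2 fold change was -0.51 with H3.2-K4R replicate 2 left out and -1.25 with replicate 1 of that group left out.

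Mean levels of a pair of neuronal surface genes were also lower in H3.2-K4R. The gene dpr7 encodes an immunoglobulin-domain protein of the Dpr family of neuronal recognition molecules. It had 11.3 and 11.1 CPM in H3.2-K4R and 18.7 and 15.6 CPM in H3.2-WT (-0.61 ± 0.21, edgeR adjusted p = 0.219). For mGluR, the metabotropic glutamate receptor gene, the levels were 26.2 and 23.1 CPM in H3.2-K4R and 33.1 and 35.9 CPM in H3.2-WT (-0.48 ± 0.17, edgeR adjusted p = 0.225). The groups did not overlap in either gene, with H3.2-K4R lower, as in 27.5% of all tested genes. The 6 neuronal markers (elav, nSyb, Syt1, brp, Syx1A and futsch) all had positive fold changes, with a median of 0.20. Of these, 0 passed the threshold in edgeR and 2, futsch and Syx1A, had an unadjusted p under 0.05. The part of neuron number or RNA content in the lower levels of dpr7 and mGluR was not tested. Of the remaining members named for a low p in this direction, CG1674 had 244 and 242 CPM against 297 and 299.6 CPM, CG11155, by sequence a kainate-type glutamate receptor gene, 48.1 and 55.7 against 65.7 and 67.4, CG31997 54.5 and 60.9 against 72.8 and 70.3, and CG31999 42.4 and 50.6 against 56.1 and 59.3, H3.2-K4R first in each. Their log2 fold changes lay between -0.36 and -0.30.

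**Figure D5:**
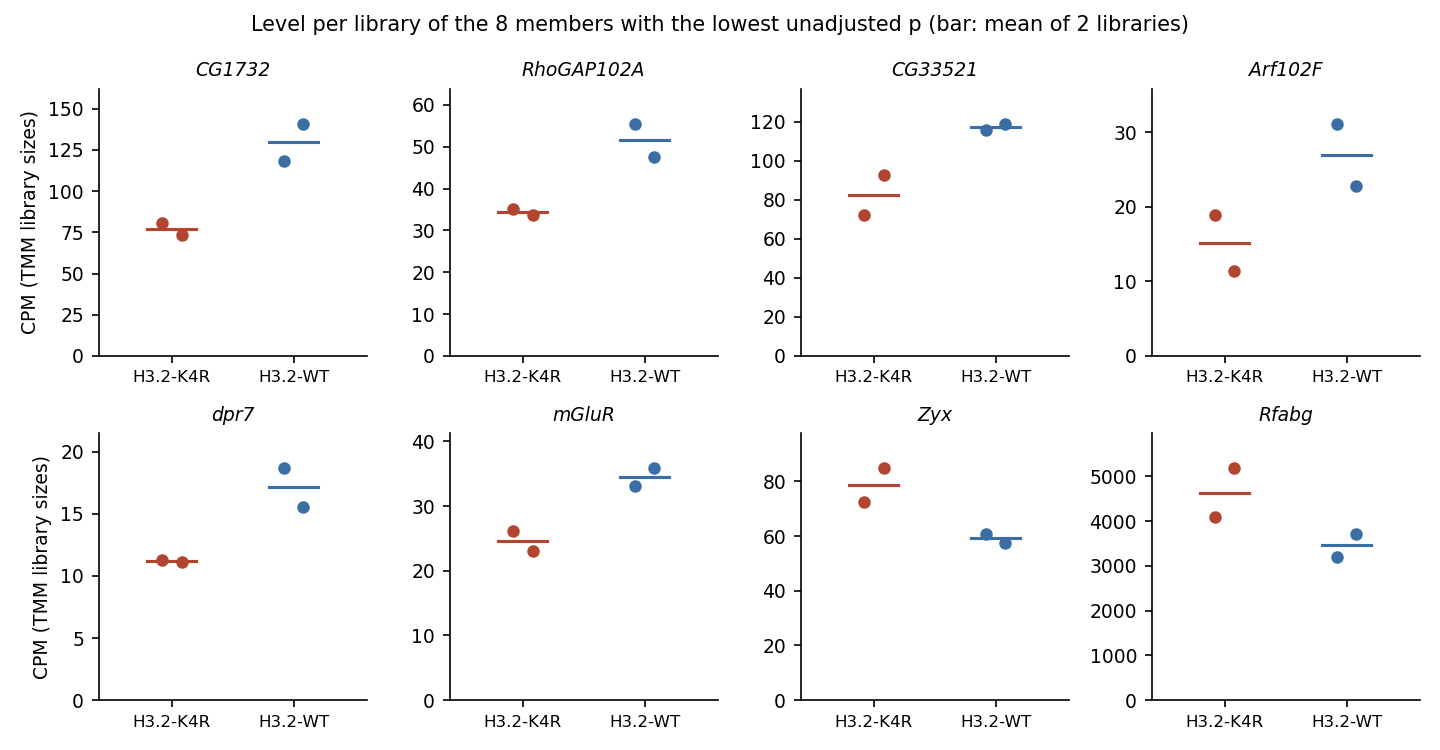
Level in CPM (vertical axes, from 0) in each library of the 8 members with the lowest unadjusted p, H3.2-K4R and H3.2-WT side by side, with bars at the mean of the 2 libraries. CG1732 lies at 80.8 and 73.3 CPM in H3.2-K4R and 118 and 141 CPM in H3.2-WT. The groups do not overlap in any of the 8, which were picked by p in this same comparison. They also do not overlap in 51% of all tested genes.

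In the other direction, the genes with the lowest p were Zyx and Rfabg, which lie on opposite strands and overlap by 4033 bases. Zyx (1057365 to 1065001, minus strand), the zyxin gene of focal adhesions and the Hippo pathway, had 72.6 and 84.9 CPM in H3.2-K4R and 60.8 and 57.5 CPM in H3.2-WT, a log2 fold change of 0.41 ± 0.16 (edgeR adjusted p = 0.249). Rfabg (now apolpp; 1060969 to 1077273, plus strand) encodes apolipophorin, the protein of the main lipid carrier of the insect blood. It was the most abundant member, at 4089 and 5186 CPM in H3.2-K4R and 3200 and 3717 CPM in H3.2-WT (0.42 ± 0.18, edgeR adjusted p = 0.288). The groups did not overlap in either gene, with H3.2-K4R higher, as in 23.6% of all tested genes. H3.2-K4R replicate 2 had the highest level of Rfabg, and without that library its log2 fold change was 0.24. It was 0.19 without the exon-length trend. In all, 8 pairs of members overlap, each on opposite strands, and the counting used strand.

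Further positive differences were held by genes of several roles. The homeobox gene onecut, a transcription factor of neurons, had 107 and 130 CPM in H3.2-K4R and 86.3 and 97.3 CPM in H3.2-WT (0.37 ± 0.16). The zinc finger and homeobox factor gene zfh2 had 613 and 702 CPM against 517 and 552 CPM (0.30 ± 0.14). For 4E-T, which binds the cap-binding protein eIF4E and represses translation, the levels were 131 and 166 CPM in H3.2-K4R and 118 and 117 CPM in H3.2-WT (0.34 ± 0.16). The DNA repair and ubiquitin receptor gene Rad23 had 84.4 and 107 CPM against 81.9 and 67.1 CPM (0.36 ± 0.18), and unc-13, needed for priming of synaptic vesicles, 602 and 623 CPM against 508 and 538 CPM (0.23 ± 0.13). In these 5 genes the H3.2-K4R libraries lay above both H3.2-WT libraries, with edgeR adjusted p between 0.302 and 0.441. Without the exon-length trend, the fold change was 0.060 for zfh2 and 0.22 for onecut, and that of unc-13, whose exons add up to 22600 bases, was -0.10. The RING finger gene CG32850 (now Rnf11) had 0.53 ± 0.24, CG31998 0.31 ± 0.16 and the nucleic acid binding gene Pur-alpha 0.34 ± 0.19. Across the members, the groups did not overlap with H3.2-K4R higher in 15 (21.4%) and lower in 15 (21.4%), where this held for 23.6% and 27.5% of all tested genes. Both directions together made up 42.9% of the members and 51% of all tested genes.

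Levels between genes are compared in RPKM, which divides CPM by exon length in kilobases. Over the tested members mean RPKM ran from 0.467 for Kif3C to 344 for Rfabg, with a median of 21.7, against 7.37 over all tested genes. In all, 49 of the 70 members were at 10 RPKM or more. After Rfabg, at 348 and 441 RPKM in H3.2-K4R and 272 and 316 RPKM in H3.2-WT, the next levels were those of PMCA, the plasma membrane calcium pump (95.3 and 113 RPKM in H3.2-K4R, 87.9 and 97.5 in H3.2-WT), CG31997 (74.8 and 83.5 against 99.9 and 96.4), CG11076 (81.6 and 98.6 against 83.4 and 87.8) and CG1970 (now ND-49), a subunit of respiratory complex I (61.0 and 66.6 against 81.4 and 67.4). Rfabg was above the others in every library. The ranges of PMCA, CG31997 and CG11076 over the 4 libraries overlap. The range of CG1970 overlaps that of CG31997, and its highest library lay just below the lowest of CG11076.

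By role, the group medians stayed close to 0. The 15 transcription factor and cofactor genes had log2 fold changes from -0.34 to 0.37 with a median of 0.08, 10 above 0, and 0 past the threshold or at an unadjusted p under 0.05 in edgeR. The most abundant per length were zfh2, bip2 (now Taf3), a TFIID subunit gene at 40.4 and 52.1 RPKM in H3.2-K4R and 40.3 and 44.6 in H3.2-WT, and NfI, a nuclear factor I gene at 29.4 and 39.2 against 29.3 and 31.7. The gene pho encodes the DNA-binding protein that recruits Polycomb complexes, and had 37.6 and 45.5 CPM in H3.2-K4R and 42.1 and 43.6 CPM in H3.2-WT (-0.04 ± 0.17, 95% interval -0.44 to 0.35). The Wnt pathway genes pan, the TCF factor, and lgs, the adaptor that ties Armadillo to Pygopus, had 14.2 and 14.7 RPKM in H3.2-K4R against 13.4 and 14.5 RPKM in H3.2-WT (0.05 ± 0.13) and 25.4 and 28.4 RPKM against 22.3 and 25.8 RPKM (0.16 ± 0.15). In all 3 genes the groups overlap. Their intervals lie within 2-fold in either direction.

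The 9 genes for ligands, receptors and guidance had a median of 0.02, with 6 above 0 and dpr7 and mGluR lower at an unadjusted p under 0.05. The TGF-beta family ligand gene mav had 126 and 185 CPM in H3.2-K4R and 142 and 126 CPM in H3.2-WT, the receptor tyrosine kinase gene Eph 115 and 134 against 114 and 128, and the semaphorin receptor gene PlexA 230 and 248 against 201 and 220. The 12 kinase, adaptor and cytoskeleton genes had a median of 0.02 with 7 above 0. Crk, an SH2 and SH3 adaptor, was almost level at 72.3 and 72.7 CPM in H3.2-K4R and 72.2 and 70.3 CPM in H3.2-WT, as was the ankyrin gene Ank at 218 and 237 against 216 and 236. Slip1 had 86.9 and 110.5 CPM against 86.5 and 83.6 CPM. In this group RhoGAP102A, Arf102F and Zyx are the 3 genes at an unadjusted p under 0.05.

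Of 8 genes for synaptic vesicles, transmitters and calcium, 6 were below 0, with a median of -0.10. Beside CG1732, CG11155, unc-13 and PMCA these include Cals, the calsyntenin gene, at 227 and 216 CPM in H3.2-K4R and 238 and 296 CPM in H3.2-WT (-0.27 ± 0.15), and Caps (now Cadps), which acts in dense core vesicle release, at 135 and 158 against 129 and 165. All 5 tested genes of RNA regulation and DNA repair were above 0, with a median of 0.11. Among them gw, the GW182 protein gene of microRNA silencing, had 333 and 344 CPM in H3.2-K4R and 310 and 339 CPM in H3.2-WT, and Thd1 (now Tdg), a thymine DNA glycosylase gene, 527 and 605 against 521 and 527. The exon-length trend touches this group: without it, gw had -0.10 and Thd1 -0.13. Of 6 tested genes of metabolism and transport, 2 were above 0 and the median was -0.08. CG1970 had 97.1 and 106 CPM in H3.2-K4R and 130 and 107 CPM in H3.2-WT, and the P-type ATPase gene CG32000 (now anne) 209 and 249 against 213 and 248. The 15 tested genes without a role group had a median of -0.07, with 7 above 0. CG11076 had 120 and 145 CPM against 123 and 129. CaMKII, the calmodulin-dependent kinase of synaptic plasticity, which is named here after its values were seen, had 231 and 319 CPM in H3.2-K4R and 267 and 311 in H3.2-WT.

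The 4 members not tested had few counts. JYalpha, an ATPase alpha subunit gene best known from hybrid sterility between fly species, is the member nearest the low-coordinate end. It had 12 and 0 counts in H3.2-K4R and 0 and 11 in H3.2-WT. The microRNA gene mir-954 had 18 and 0 counts in H3.2-K4R and 0 and 7 in H3.2-WT. The noncoding RNA gene sphinx had 2 and 29 against 3 and 8, and CG11231 0 and 0 against 1 and 0. In each of the first 3 the libraries of a group are further apart than the groups, so no fold is given. The last member along the chromosome is Caps.

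The genes known to act on the fourth chromosome and on heterochromatin lie on other chromosomes. Of 19 on the list, all were tested and 0 passed the threshold in edgeR, where 0.588% of all tested genes did. At an unadjusted p under 0.05, 2 were lower (wde and roX2) and 0 higher, against 9.2% and 7.68% of all tested genes. Of the 19, 8 were above 0, where 48.1% of all tested genes were. Their median log2 fold change was -0.12. Pof had 4.79 and 3.24 CPM in H3.2-K4R and 4.96 and 5.13 CPM in H3.2-WT (-0.33 ± 0.37). The methyltransferase gene egg had 9.83 and 9.82 CPM against 15.1 and 11.0 CPM (-0.41 ± 0.25). For wde, the cofactor of egg, the levels were 54.5 and 63.0 against 95.02 and 82.9 CPM (-0.60 ± 0.16). Its adjusted p was 0.161 in edgeR, 0.0375 in DESeq2 and 0.0816 in limma-voom. In these 3 genes both H3.2-K4R libraries lay below both H3.2-WT libraries, as in 27.5% of all tested genes. Other regulators on the list also had groups that did not overlap. In some, among them HP1c and roX2, H3.2-K4R was lower. In others, among them Bin1 and roX1, H3.2-K4R was higher, as in 23.6% of all tested genes. The gene of HP1a had 29.1 and 27.7 CPM in H3.2-K4R and 32.9 and 28.7 CPM in H3.2-WT (-0.12 ± 0.17), and its groups overlap.

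The noncoding RNA gene roX2 of the X chromosome dosage compensation complex had 52.1 and 32.7 CPM in H3.2-K4R and 72.0 and 61.3 CPM in H3.2-WT (-0.65 ± 0.23, edgeR adjusted p = 0.231). It was called lower by edgeR with no filter on low counts (adjusted p = 0.0179), a fit that called 7.06% of all tested genes. With a replicate block edgeR also called it (adjusted p = 0.00241), where 11.8% of all tested genes were called. DESeq2 and limma-voom did not call it (adjusted p = 0.129 and 0.138). Its fold change ran from -1.03, without H3.2-K4R replicate 1, to -0.36 over the alternatives. The other roX gene, roX1, had 749 and 761 against 717 and 725 (0.07 ± 0.13). The H3K9 demethylase gene Kdm4A had 4.76 and 2.35 CPM against 11.3 and 4.27 CPM, with libraries of each group far apart (-1.12 ± 0.53, edgeR adjusted p = 0.338). Over the alternatives its fold change ran from -1.72 without H3.2-K4R replicate 1 to -0.25 without H3.2-WT replicate 1. The same 2 edgeR fits, with a replicate block and with no filter, called it lower (adjusted p = 0.0361 and 0.0457). DESeq2 and limma-voom did not (adjusted p = 0.295 and 0.415). Kdm4B had 0.06 ± 0.22. Su(var)3-7, a zinc finger partner of HP1a, had -0.46 ± 0.21, the HP1a partner Su(var)2-HP2 0.34 ± 0.16, and the H3K9 methyltransferase genes Su(var)3-9 and G9a -0.12 ± 0.30 and 0.09 ± 0.16. The kinase gene JIL-1, which acts against the spread of heterochromatin, had 0.19 ± 0.15. HP1b, HP1c, HP4, HP5 and HP6 had fold changes between -0.41 and 0.28, and Bin1 had 0.42 ± 0.25.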

How the data were processed

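The authors' deposited values are raw counts per gene and library, made with featureCounts 2.0.6 on dm6 per the file headers. Read pairs were counted over exons with strand option 1, and no option for multi-mapping pairs or pairs over several genes was set. STAR 2.7.7a, SAMtools 1.9 and Subread 2.0.6 are listed, with no roles, per the submitters' processing notes. Columns whose names begin with HWT were matched to H3.2-WT by stage and replicate number. Exon lengths and coordinates are those of the deposited table.

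The fit used all genes: edgeR 4.0.16 in R 4.3.3, filterByExpr (minimum count 10, minimum total 15), TMM scaling, group as the only term in a quasi-likelihood test, and Benjamini-Hochberg adjustment across 11562 genes. SE is the log2 fold change over the root of F. Log2 CPM used a prior count of 2. DESeq2 1.42.0 and limma-voom (limma 3.58.1) were alternatives. The functions were tested on simulated data. Nothing in the labels says that replicates came from separate collections, so a p-value, SE or interval here covers library-to-library spread, possibly technical. Members, role lists and tests were chosen with earlier results of these data known. Named are the 10 members of lowest p in each direction, the 3 highest in RPKM per role group and the 5 highest of all, pho, pan, lgs, a list of 19 regulators, and members at the ends of the chromosome or at 0. Of 74 members, 73 matched a current RefSeq symbol, and 16 of these differ from the table. No sequence is printed, since no sequence table was used here.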

Additional observations from a re-analysis of the deposited data

How the results depend on the processing

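Of the members, 0 were called higher and 0 lower in the edgeR analysis reported (48 higher and 20 lower of all genes), and also 0 with RLE size factors, library size only or the exon-length trend removed (75 genes higher). DESeq2 called 1 member lower (358 genes higher and 307 lower, 1569 adjusted p not given), and limma-voom 1 (101 and 72). These tools called 5.75% and 1.5% of all tested genes. With no filter on low counts edgeR called 2 of 74 tested members lower, CG1732 and Arf102F. That fit called 452 genes higher and 527 lower, which is 7.06% of all tested genes. Replicate numbers are shared by the groups, but nothing in the labels says that they pair the libraries, and the deviations of replicate 1 in both groups correlated at r = 0.11 over all genes. Of the 70 tested members, a fit with the replicate block called 1 higher (Rfabg) and 4 lower (CG1732, RhoGAP102A, Arf102F and CG33521). In all it called 608 genes higher and 758 lower, which is 11.8% of all tested genes. Of the regulators, it called wde, roX2 and Kdm4A lower (adjusted p = 0.0061, 0.00241 and 0.0361, edgeR), and the fit with no filter called the same 3 (adjusted p = 0.0262, 0.0179 and 0.0457). Leaving out 1 library gave 0 to 2 members lower, 1 to 251 genes higher, 0 to 587 genes lower, and a median of the members minus that of all genes between -0.050 and 0.19. The cause of these differences was not tested.

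Some named genes changed sign, most of them with a small fold change in the analysis reported, but also unc-13 (0.23 there), mav (0.22), PlexA (0.19), NfI (0.17) and HP6 (-0.41). CG32000 had 0.019 with RLE size factors and 0.018 with DESeq2, and Caps 0.022 with either and 0.00091 with no filter. With library size only, Crk had -0.010 and Ank -0.029. With the exon-length trend removed, the values were -0.10 for unc-13, -0.070 for Eph, -0.029 for PlexA, -0.12 for Ank, -0.10 for gw, -0.13 for Thd1, 0.029 for pho, -0.21 for pan, 0.078 for the HP1a gene, 0.075 for HP1b, -0.068 for G9a, -0.083 for Kdm4B and -0.042 for roX1. Leaving out 1 library gave ranges across 0 for Ank (-0.054 to 0.073), CG11076 (-0.069 to 0.20), CG32000 (-0.14 to 0.11), Caps (-0.16 to 0.18), Eph (-0.068 to 0.15), NfI (-0.052 to 0.36), bip2 (-0.072 to 0.29), mav (-0.084 to 0.46), pho (-0.19 to 0.083), G9a (-0.067 to 0.23), HP1b (-0.27 to 0.15), HP5 (-0.11 to 0.27), HP6 (-1.24 to 0.12), Kdm4B (-0.15 to 0.24) and Su(var)3-9 (-0.30 to 0.090). A fit without 1 library leaves a group with a lone library, assumed to vary like the other group. Depth limits the members under 1 RPKM, CG9935 and Kif3C, whose intervals reach past 2-fold in both directions in CG9935 and upward in Kif3C.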

Other observations

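The rule left out 8 named genes of the chromosome, of which 0 passed the threshold in edgeR, against 0.588% of all tested genes. At an unadjusted p under 0.05 were 2, both lower, where 9.2% of all tested genes were lower. RpS3A, a ribosomal protein gene, had 684 and 543 CPM in H3.2-K4R and 1031 and 956 CPM in H3.2-WT (log2 fold change -0.70 ± 0.16, edgeR adjusted p = 0.126). ATPsyn-beta, an ATP synthase subunit gene, had 421 and 346 CPM against 554 and 565 CPM (-0.55 ± 0.15, edgeR adjusted p = 0.166). The projectin gene bt had 6097 and 4870 CPM in H3.2-K4R and 5048 and 3861 CPM in H3.2-WT. The signalling and eye genes ci, ey, toy and sv had fold changes between -0.18 and 0.13. The 15 tested CR-numbered and snoRNA genes of the chromosome had a median of -0.02, with fold changes between -0.98 and 1.39. In edgeR 0 of them passed the threshold and 3 were at an unadjusted p under 0.05, where 16.9% of all tested genes were.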
